A study of Zea mays with 2 samples.

Results

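Isolated loci are listed stretches that stand alone in the maize (Zea mays) genome, far from any other listed transcript. The rule uses position and length and no level, although a span is listed only where a library gave it a value above 0. From the distinct positions listed on chromosomes 1 to 10, a locus was taken if it spanned more than 1100 bp and less than 20000 bp and had a gap of more than 150 kb to the nearest listed span on both sides. This gave 98 loci of 58260 distinct spans (0.168%). Values of all features on a span were summed, and the 57 loci that reached 1 FPKM in either library were compared between the genotypes. FPKM counts fragments relative to feature length and to all mapped fragments, so levels of different loci can be set side by side.

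The study profiled messenger RNA of kernel endosperm, taken 19 days after pollination from wild type plants and from the fl4 (floury4) mutant. Both groups share the tissue and the age, and the background strain is not stated in the sources used here. Each genotype has 1 file with a single value per feature. The series design speaks of triplicates, and how they were combined is not stated in these sources. There is therefore no error between plants and no p-value, every difference describes these 2 libraries, and sequencing depth is unknown. In such a bulk tissue, fewer cells of a type and less RNA per cell cannot be told apart.

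The endosperm is the nutritive tissue of the cereal kernel and fills with starch and with zeins, the storage proteins of maize. Floury mutants have soft, opaque kernels, and fl4 is known as a defect of an alpha-zein that disturbs zein storage in the endoplasmic reticulum. The maize genome consists largely of retrotransposons, in which genes lie singly or in small islands. Genes are denser toward the chromosome arms, while the regions around the centromeres are gene-poor and largely heterochromatic.

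The loci carry positions and no gene names, and none of the listed identifiers matched the RefSeq gene table (0 of 65535). Which genes the loci belong to, the markers that would define endosperm, and gene lists of pathways were not analysed here. No genome build is stated in the sources used here, so positions are given as listed. No feature is listed at 0 in both libraries, so a gap is a stretch without a listed transcript and may hold genes that gave no reads. The tables have 65536 lines with the header, the row limit of older spreadsheets, and whether neighbours were cut off there is not known.

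The isolated loci lay mostly in the interior of the chromosomes. The rule sets no place along the chromosome, but its gaps favour sparse stretches, and spans at chromosome ends were left out. Of the 98 loci, 76 (77.6%) lay between 20% and 60% of the listed extent of their chromosome, against 24.1% of the 37187 loci of the same length range that were not isolated, called other loci of the same length below. The interval from 40% to 50% alone held 28 of them. The first 10% and the last 10% of the chromosomes together held 4 isolated loci, against 31.7% of the other loci.

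**Figure D1:**
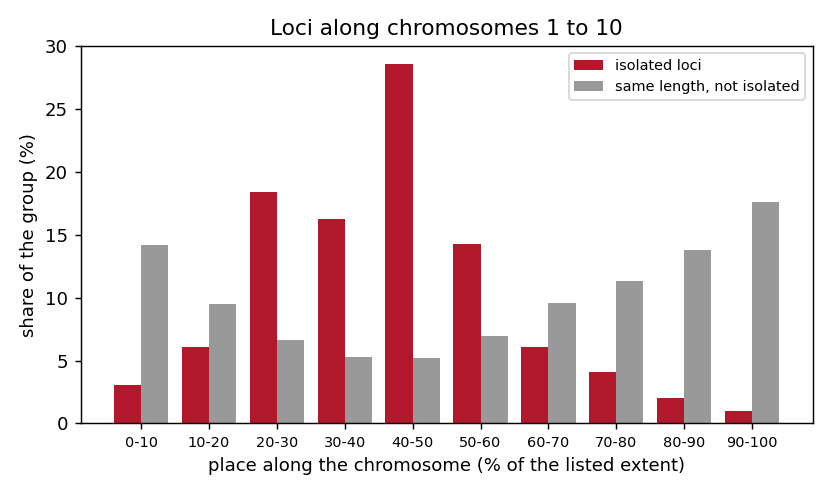
Share of the 98 isolated loci (red) and of the 37187 other loci of the same length (grey) in steps of 10% of the listed extent of chromosomes 1 to 10. The isolated loci peak at 40% to 50%, with 28.6%, where the other loci have 5.23%.

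The sparse surroundings reached beyond the gaps. In the ring from 150 kb to 1 Mb on both sides, an isolated locus had a median of 29 listed spans, with a range of 10 to 100, against a median of 54 around other loci of the same length. The median was 30 around those of them within 1 Mb of an isolated locus and 32 around those with a smaller gap of 100 to 150 kb, so it hardly differed from that of nearby or nearly isolated loci. Long gaps also take up room in this ring, so the count is not fully independent of the rule. Whether the surroundings are poor in genes was not analysed here, since no annotation of the build was used. The extreme of 100 spans belonged to the locus at 1711436 to 1713092 of chromosome 4, near a chromosome end, which was listed at 0.0112 FPKM in fl4 and 0.0241 FPKM in wild type.

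The smaller of the 2 gaps ranged from 150.5 to 507 kb with a median of 182 kb, and the larger gap had a median of 249 kb and reached 878 kb. The median smaller gap over all spans was 2.44 kb. In all, 30 loci had more than 200 kb on both sides. The 191 distinct gaps next to isolated loci added up to 44.6 Mb. Isolated loci were scattered, with a median distance of 5.45 Mb to the nearest other one, and 22 of the 98 had another within 1 Mb.

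At the threshold, the locus just inside the gap rule lay at 122953151 to 122955179 of chromosome 10, with a smaller gap of 150.5 kb, 27.5 FPKM in fl4 and 24.4 FPKM in wild type. Just outside, a span on chromosome 7 had a smaller gap of 149.8 kb and stood at 0.0283 FPKM in fl4 and 0.000384 FPKM in wild type. The shortest isolated locus, on chromosome 10, spanned 1108 bp with 0.0891 FPKM in fl4 and 0.00907 FPKM in wild type. The next shorter isolated span, on chromosome 6, had 1090 bp, with 3.10 FPKM in fl4 and 0.107 FPKM in wild type. The longest spanned 14113 bp, on chromosome 3, and was listed at 0 in fl4 and at 0.118 FPKM in wild type. The next longer isolated span had 23352 bp, on chromosome 4, with 0.0120 FPKM in fl4 and a listed 0 in wild type.

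Most isolated loci were transcribed at low to moderate levels. Of the 98 loci, 57 (58.2%, exact 95% binomial interval 47.8% to 68.1%) reached 1 FPKM in either library, against 63.7% of the other loci of the same length and 67.1% of the 6436 that were tightly packed, with a listed span under 5 kb away on both sides. At least 10 FPKM was reached by 19 isolated loci (19.4%), against 29.7% of the other loci. At least 100 FPKM was reached by 3 (3.06%), against 2.66%. These intervals cover the counting of loci only, and the differences were not tested.

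The closest comparison is with loci of the same neighbourhoods. Within 1 Mb of an isolated locus lay 1640 loci of the same length that were not isolated, of which 55.1% reached 1 FPKM and 23.3% reached 10 FPKM. Their median level was 1.21 FPKM in fl4 and 1.18 FPKM in wild type, where the isolated loci had 1.32 and 1.67 FPKM and all other loci of the same length 2.41 and 2.37 FPKM. The share of isolated loci was above that of their neighbourhoods at 1 FPKM and below it at 10 FPKM, so no steady order of the groups is seen.

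**Figure D2:**
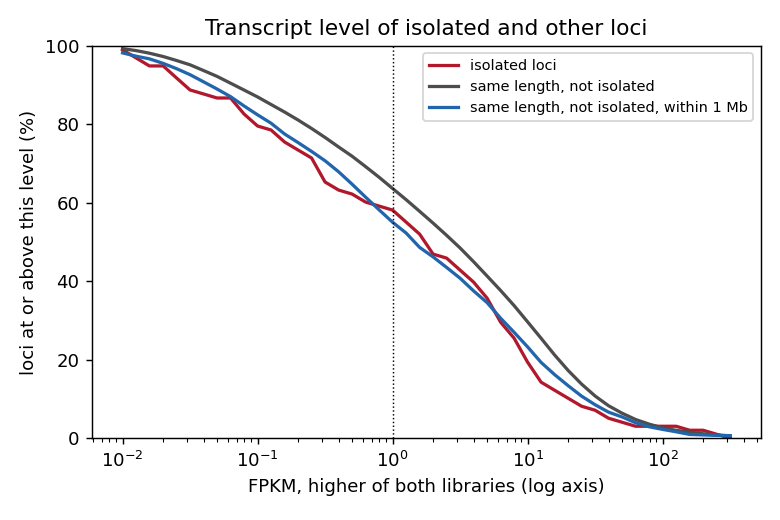
Share of loci at or above a given level, taken as the higher FPKM of both libraries (log axis), for isolated loci (red), other loci of the same length (grey) and those within 1 Mb of an isolated locus (blue). At 1 FPKM (dotted line) the shares are 58.2%, 63.7% and 55.1%.

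A group of 3 loci carried most of the summed level of the isolated loci. The most abundant isolated locus, at 81298580 to 81311026 of chromosome 9, had 256 FPKM in fl4 and 195 FPKM in wild type. The locus at 87119197 to 87123018 of chromosome 6 had 237 and 184 FPKM. The locus at 136570995 to 136574421 of chromosome 7 had 136 and 116 FPKM. All 3 were somewhat higher in fl4, by 1.31-, 1.29- and 1.17-fold, on a scale where 1 FPKM is added to both values before the ratio is taken. Together they made up 55.2% of the summed FPKM of the isolated loci in fl4 and 50.3% in wild type.

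The next 3 loci by abundance differed little between the genotypes. The locus at 112198030 to 112206945 of chromosome 3 had 58.4 FPKM in fl4 and 48.7 FPKM in wild type. The locus at 80502965 to 80511953 of chromosome 7 had 41.7 and 45.0 FPKM. The locus at 37409325 to 37412866 of chromosome 8 had 31.6 and 33.3 FPKM. The first was higher and the other two lower in fl4, none by more than 1.2-fold.

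Abundant isolated loci stood beside much weaker listed neighbours in several cases. The nearest spans of the chromosome 9 locus, at a distance of 247 and 229 kb, had 0.245 and 5.27 FPKM in fl4 and 0.0925 and 4.15 FPKM in wild type. Those of the chromosome 3 locus had 0.0156 and 0.344 FPKM in fl4, and 0.0768 and 0.388 FPKM in wild type. The chromosome 6 locus differed in this, with a neighbour of 71.9 FPKM in fl4 and 58.6 FPKM in wild type at 155 kb.

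The isolated loci held little of the total transcript. Their FPKM summed to 1137 in fl4 and 984 in wild type, which is 0.1% and 0.0959% of the totals of 1132704 and 1025980 FPKM. The log2 ratio of the sums was 0.21, and it was 0.06 without the 3 most abundant loci, whose values made up the larger part of the gap. The total of fl4 was itself 1.104 times that of the wild type, and with totals made equal without the 20 most abundant features the log2 ratio of the sums became 0.05.

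Transcript levels of the isolated loci were close to equal in mutant and wild type endosperm. Of the 57 loci compared, 33 (57.9%) lay within 1.2-fold, against 51.6% of all spans and 60.3% of loci of the same length that were not isolated. At least 2-fold differences were seen at 3 loci (5.26%, exact 95% binomial interval 1.10% to 14.6%), 1 higher and 2 lower in fl4. Over all 34969 spans with at least 1 FPKM, 10.9% differed by 2-fold or more, 6.28% higher and 4.67% lower. Many of those are short, since 14.6% of spans of 1100 bp or less were 2-fold higher and 10.8% lower. Over loci of 1100 to 20000 bp that were not isolated the share was 4.73%, with 2.71% higher and 2.03% lower. The share among isolated loci was near this background of equal length, and its interval holds both 4.73% and 10.9%. Among the neighbourhood loci 5.87% differed 2-fold, and among the tightly packed 4.31%.

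**Figure D3:**
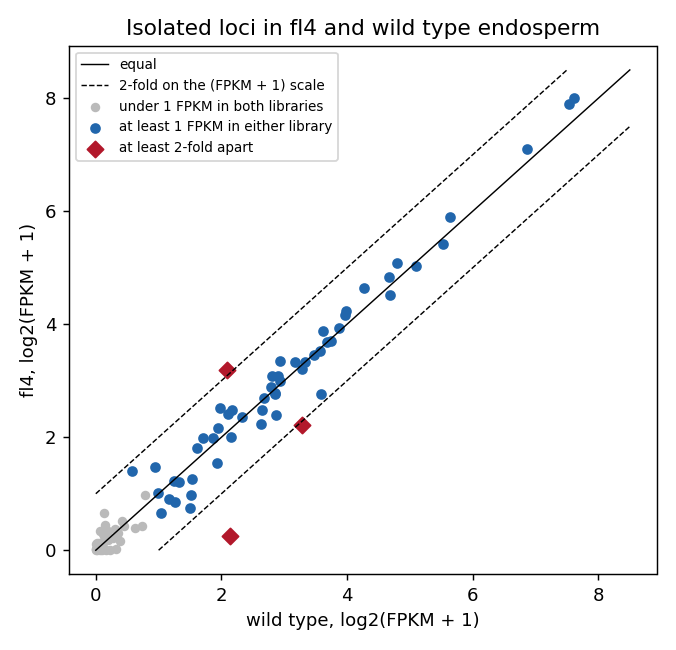
Level of each of the 98 isolated loci in wild type (x axis) and in fl4 (y axis), as log2(FPKM + 1). The solid line marks equal values and the dashed lines a 2-fold difference. The 3 loci at least 2-fold apart (red diamonds) are below 10 FPKM in both libraries.

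The 3 loci with a 2-fold difference were named after their values were seen. The locus at 106467072 to 106468443 of chromosome 4, 1372 bp long, had 0.193 FPKM in fl4 and 3.39 FPKM in wild type, a log2 ratio of -1.88 with 1 FPKM added. Without that addition the values were 17.6-fold apart, and the low value in fl4 rests on an unknown number of reads. The locus at 120642382 to 120644533 of chromosome 1 had 3.63 FPKM in fl4 and 8.71 FPKM in wild type, a log2 ratio of -1.07. The locus at 42220208 to 42228147 of chromosome 10 had 8.13 FPKM in fl4 and 3.26 FPKM in wild type, a log2 ratio of 1.10. The last was the sole isolated locus that was 2-fold higher, and it fell short of 2-fold, at a log2 ratio of 0.98, when totals were made equal without the 20 most abundant features. With 5 FPKM added in place of 1, none of the 3 loci was 2-fold apart.

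None of the listed neighbours of these 3 loci was 2-fold apart on this scale. The chromosome 10 locus lay between spans with 43.1 and 19.7 FPKM in fl4 and 38.2 and 16.7 FPKM in wild type, with log2 ratios of 0.17 and 0.23. The chromosome 1 locus had neighbours at log2 ratios of 0.13 and -0.52, the second with 0.782 FPKM in fl4 and 1.55 FPKM in wild type. The chromosome 4 locus was followed by a span listed at 0.218 FPKM in fl4 and 0 in wild type, and preceded by another isolated locus with 0.425 FPKM in fl4 and 0.336 FPKM in wild type.

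At 10 FPKM or more, no isolated locus differed 2-fold (0 of 19), against 10.4% of all spans at that level and 4.04% of those of the same length that were not isolated. Among the largest ratios at that level, the locus at 148888428 to 148889721 of chromosome 5 had 23.9 FPKM in fl4 and 18.2 FPKM in wild type, 1.29-fold higher. Its neighbour at 194 kb, only 101 bp long, reached 104 FPKM in fl4 with a listed 0 in wild type, so no fold is given for it. The chromosome 9 locus described above had the highest ratio, at a log2 value of 0.39. At the other end, the locus at 98096124 to 98097592 of chromosome 1 had 5.79 FPKM in fl4 and 11.0 FPKM in wild type, 1.76-fold lower. The locus at 37900244 to 37903756 of chromosome 6 followed with 21.8 and 24.8 FPKM, 1.13-fold lower. A single locus of the 19 was thus more than 1.5-fold apart, and it reached 10 FPKM in wild type only.

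**Figure D4:**
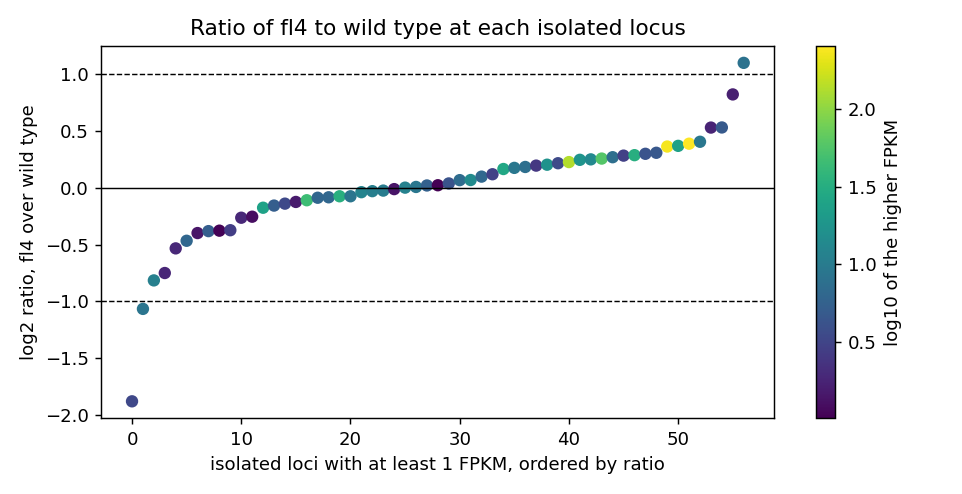
Log2 ratio of fl4 to wild type, with 1 FPKM added to both values, for the 57 isolated loci with at least 1 FPKM, ordered by ratio and coloured by the higher FPKM (log10). Dashed lines mark 2-fold. The values run from -1.88 to 1.10.

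Among the 38 loci of 1 to 10 FPKM the spread was wider. A 1.5-fold difference was reached by 5 of these 38 loci (13.2%) and by 1 of the 19 more abundant ones (5.26%). At the same 2 levels the shares were 14.8% and 10.8% for other loci of the same length, and 23.8% and 19.6% for all spans. Over all 57 isolated loci a 1.5-fold difference was reached by 6 (10.5%), 2 higher and 4 lower in fl4. The share was 12.9% among the other loci of the same length and 22.0% among all spans. The median absolute log2 ratio was 0.23 over the 57 loci, 0.20 over the other loci of the same length and 0.22 over those in the same neighbourhoods.

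The balance of direction depended on the scaling. As deposited, 32 of the 57 loci were higher in fl4 and 25 were lower, and 58.8% of all spans compared were higher. The median log2 ratio was 0.022 (order-statistic 95% interval over loci -0.075 to 0.183), where the median of all spans was 0.072. Centred on the median of all spans, 25 were higher and 32 lower, and 50.4% of all spans were higher. With totals made equal without the 20 most abundant features, which shifts all spans down by 0.15 before the added FPKM, 24 were higher and 33 lower, at medians of -0.088 for the isolated loci and -0.06 for all spans. With these equal totals 42.3% of all spans were higher. Each scaling applies the same change to all spans, so the counts of the isolated loci and of all spans move together by construction. No direction common to the isolated loci can be read from these values.

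None of the 57 loci was listed at 0 in either library, where 2.68% of all spans with at least 1 FPKM and 0.253% of other loci of the same length were at 0 in one. Of the 41 loci under 1 FPKM in both libraries, 3 were listed at 0 in fl4 and another 3 at 0 in wild type. The higher value of these 41 loci had a median of 0.118 FPKM and the lowest was 0.00854 FPKM. Of the 41, 22 were higher and 19 lower in fl4. The level of 1 FPKM was reached by 51 loci in fl4 and 54 in wild type, 48 of them shared. The same overlap was not taken over all spans, so it cannot be read as a trait of the isolated loci.

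The most isolated loci of all stood under 1 FPKM. The locus with the largest smaller gap, 507 kb, lay on chromosome 7 and had 0.123 FPKM in fl4 and 0.301 FPKM in wild type. The second, also on chromosome 7 and with a smaller gap of 415 kb, had 0.272 and 0.0505 FPKM. These were the only 2 of the 98 loci with more than 300 kb on both sides.

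Among loci of at least 1 FPKM, the 4 with the largest smaller gap were of moderate level. The locus at 136503056 to 136511785 of chromosome 1, with no listed span within 287 kb, had 9.14 FPKM in fl4 and 6.66 FPKM in wild type, 1.32-fold higher. The locus at 120748538 to 120752877 of chromosome 3 had 5.79 and 6.22 FPKM. The locus at 43211879 to 43215886 of chromosome 10 had 0.688 and 1.84 FPKM, 1.68-fold lower in fl4. The locus at 116126265 to 116136064 of chromosome 4 had 13.6 and 11.3 FPKM. These 4 went in both directions, and none was 2-fold apart with 1 FPKM added. Without that addition the values of the chromosome 10 locus were 2.67-fold apart, and with 0.1 FPKM added its log2 ratio was -1.3.

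Level and ratio showed no steady course with distance. With a smaller gap of 150 to 200 kb, 41 of 68 loci reached 1 FPKM and 2 of the 41 differed 2-fold. With 200 to 300 kb, 16 of 28 loci reached 1 FPKM and 1 of the 16 differed 2-fold. Among loci of the same length with smaller gaps of 100 to 150 kb, 57.1% reached 1 FPKM and 3.11% of those differed 2-fold. At 50 to 100 kb the shares were 64.8% and 4.11%, and under 5 kb 65.1% and 4.50%. Over the 98 loci, the smaller gap and the mean level had a Spearman rho of -0.13 and a Pearson r of -0.17 with the log2 level, given as a description of loci from the same 2 libraries.

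**Figure D5:**
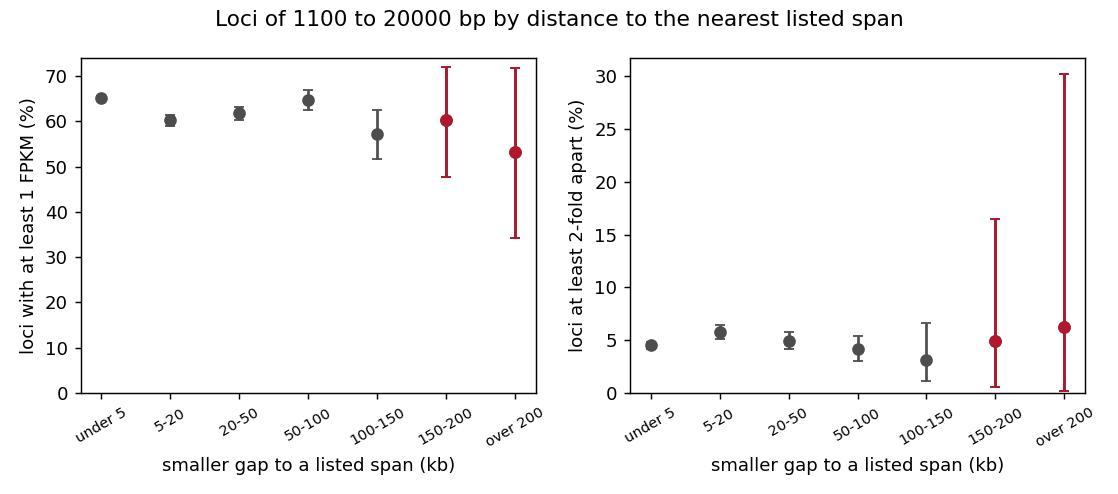
Share of loci of 1100 to 20000 bp that reached 1 FPKM (left) and, of these, share at least 2-fold apart (right), by the smaller gap to a listed span in kb. Bars are exact 95% binomial intervals over loci, red points are isolated loci, and the interval for gaps over 200 kb rests on 30 loci on the left and 16 on the right.

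In 5 cases 2 isolated loci followed each other with no other listed span between them, which involved 9 loci. On chromosome 1 the locus at 136.51 Mb, with 9.14 FPKM in fl4, lay between isolated loci with 0.0228 FPKM at 136.12 Mb and 0.299 FPKM at 136.8 Mb. On chromosome 6 the locus at 37.9 Mb, with 21.8 FPKM in fl4, followed one with 0.134 FPKM across 416 kb. On chromosome 4 the locus at 92.06 Mb had 2.50 FPKM in fl4 and its partner at 91.78 Mb had 0.00317 FPKM. In these 3 runs, 1 locus was well above the others in both libraries. The remaining pair, on chromosome 4 at 106.23 and 106.47 Mb, had 0.425 and 0.193 FPKM in fl4 and 0.336 and 3.39 FPKM in wild type, so its order differed between the libraries.

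Longer isolated loci reached 1 FPKM more often than shorter ones, a difference that was not tested. Of the 49 loci from the median length of 3340 bp upward, 34 reached 1 FPKM and 13 reached 10 FPKM, against 23 and 6 of the 49 shorter ones. All 3 loci above 100 FPKM were in the longer group. Over the 98 loci, length and mean level had a Spearman rho of 0.24, and a Pearson r of 0.29 on log2 scales, and the rho was 0.33 over the other loci of the same length range.

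Level was also compared by place along the chromosome. Of the 76 loci between 20% and 60% of their chromosome, 40 reached 1 FPKM (52.6%, exact 95% binomial interval 40.8% to 64.2%). The median over all 76 was 0.748 FPKM in fl4 and 1.02 FPKM in wild type. Of the 22 loci outside that stretch, 17 reached 1 FPKM (77.3%, interval 54.6% to 92.2%), with medians of 4.14 and 3.46 FPKM. The 3 loci with a 2-fold difference were all inside it, among 40 loci compared there (7.5%, exact 95% binomial interval 1.57% to 20.4%). Outside it, 0 of 17 compared loci differed 2-fold, with an interval of 0.0% to 19.5%. The intervals overlap for both shares, and neither share was taken by stretch for other loci. These counts can therefore not be read as a trait of place. The difference between the 2 stretches was not tested.

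The isolated loci that reached 1 FPKM were also counted by chromosome. Chromosome 1 had most, 14 loci, of which 8 reached 1 FPKM, and chromosome 4 had 13, of which 8 did. On chromosome 5 8 of 9, on chromosome 10 6 of 7 and on chromosome 6 7 of 9 loci reached 1 FPKM. On chromosome 2 2 of 7, on chromosome 3 4 of 11 and on chromosome 7 5 of 12 did so. Chromosomes 8 and 9 stood between, with 4 and 5 of 8. Each count rests on 7 to 14 loci, and the differences between chromosomes were not tested.

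Ratios by chromosome lay on both sides of equality. Ratios of other loci were not taken by chromosome, so these values cannot be read as a trait of a chromosome. The 5 loci of chromosome 9 with at least 1 FPKM had a median log2 ratio of -0.40, although the most abundant of them was higher in fl4. Their median level was 1.02 FPKM in fl4 and 1.87 FPKM in wild type, close to the 1 FPKM added before the ratio. The 8 loci of chromosome 5 had a median of 0.18, with 6 higher and 2 lower, and the 7 loci of chromosome 6 one of -0.012. On chromosome 8, 3 of the 4 loci were lower in fl4, all within 1.2-fold. On chromosome 4 the 8 loci had a median of 0.10, and 6 of them were within 1.2-fold. The locus with the largest difference of all was among the other two.

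Of the 98 isolated loci, 81 had 1 feature on their span and 17 had 2, which is 17.3% with several features against 14.6% of the other loci of the same length. The isolated loci with 2 features reached 1 FPKM more often, in 15 of 17 cases against 42 of 81. Levels are summed over features, and several features went with level among the other loci too. Of those other loci, 15.7% had several features at 1 to 10 FPKM and 25.2% at 10 FPKM or more. The difference can therefore not be read as a trait of the isolated loci. In the 15 loci, the main feature gave a median of 88.2% of the level summed over both libraries. That share was lowest, at 64.7%, at a locus of chromosome 8, where it was 62% in fl4 and 67% in wild type. In 8 of the 15 loci both features leaned to the same genotype. Where they leaned apart, a feature could be close to equality, as the minor one of that chromosome 8 locus at a log2 ratio of 0.011. At 74018886 of chromosome 4 they were further apart, at -0.467 and 0.517. The share was not taken for other loci with 2 features.

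At the most abundant loci with 2 features, the features differed in ratio. On the chromosome 9 locus the main feature gave 96.3% of the sum in fl4 and 95% in wild type, and had a log2 ratio of 0.41 where the minor one had -0.062. On the chromosome 7 locus of 136 FPKM the main feature gave 93.3% and 91.8%, with log2 ratios of 0.25 and -0.065. In both, the higher sum in fl4 came from the main feature. How reads shared by features on a span were assigned is not stated in the sources used here.

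The 185 other spans that border the gaps had a median length of 1952 bp, and 97 (52.4%) reached 1 FPKM. Of these 97, 10 (10.3%) were at least 2-fold apart, and 9 of the 10 were 1100 bp or shorter, a length outside the rule for isolated loci. For 47 isolated loci with such a neighbour, the log2 ratio of the locus and the mean of its neighbours lay on the same side of the all-span median in 27 cases. Their Spearman rho was 0.29 and Pearson r 0.18, a description over loci that share both libraries.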

How the data were processed

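Messenger RNA of endosperm was measured in 2 samples, fl4 and wild type, both at 19 days after pollination. Values are FPKM as computed by the authors, per the file headers. The submitters' processing notes list Bowtie 0.12.2. Quantification program, annotation, build and filters are not given in these sources. Of 65535 features, 65315 lie on chromosomes 1 to 10, on 58260 distinct spans, and 220 were left out (0.288% of the FPKM in fl4, 0.254% in wild type).

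FPKM was summed per span. A gap is the number of bases between a span and the nearest listed span, and spans at chromosome ends were left out. Log2 ratios used FPKM + 1, and spans reaching 1 FPKM in either library were compared. A 2-fold difference is a rule of size, not a test, and depth is unknown. Named were the 6 most abundant loci, the 2 highest and 2 lowest ratios from 10 FPKM, the 4 most isolated loci from 1 FPKM, and loci at the thresholds. Loci listed at 0 in 1 library were also planned, but none of the 57 loci compared was at 0. The 3 at 0 in fl4 and 3 at 0 in wild type were under 1 FPKM and were not named on that ground. The members and lists were chosen with earlier results of these data known. The rule and the counts were tested on simulated data. Alternatives covered pseudocount, filter, fold, scaling, features at 0, sums, gap and length. Python 3.11.15, numpy 2.4.6, pandas 2.3.3 and scipy 1.17.1 were used.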

Additional observations from a re-analysis of the deposited data

How the results depend on the processing

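The numbers of isolated loci 2-fold higher (1) and 2-fold lower (2) in fl4 are small, and a setting that adds or removes a single locus can change them by 1.5 times or more. The count of higher loci became 2 with a pseudocount of 0.1 FPKM, 2 at a 1.5-fold threshold, 3 with gaps over 100 kb and 2 with spans over 600 bp. It became 0 with a pseudocount of 5 FPKM, at a 4-fold threshold, with totals made equal (20 most abundant features left out), and with gaps over 200 kb. The count of lower loci became 0 with a pseudocount of 5 FPKM and at a 4-fold threshold, and 1 with at least 5 FPKM, with gaps over 200 kb or with spans over 2000 bp. It became 3 with a pseudocount of 0.1 FPKM and with gaps to spans of at least 300 bp, 4 at 1.5-fold and 6 with gaps over 100 kb. With gaps counted only to spans of at least 1 FPKM, the rule took 769 loci, of which 365 reached 1 FPKM, and 18 were higher and 7 lower. The share of 2-fold differences (5.26%) became 0.0% with a pseudocount of 5 FPKM. It stood between 3.06% and 8.77% in the other settings that keep the 2-fold threshold. At thresholds of 1.5-fold and 4-fold the shares reaching them were 10.5% and 0.0%. The median log2 ratio (0.022) became -0.088 with equal totals, and -0.047 when centred on the median of all spans. With gaps over 300 kb no locus reached 1 FPKM and no value was obtained. Of 85 values of named loci, 83 moved by less than 1.5-fold and none of the called ones changed direction. The exceptions were those of the locus at 106467072 of chromosome 4, at -3.58 and -0.69 with pseudocounts of 0.1 and 5 FPKM. No paired analysis was possible because there is a single library of each genotype, which also leaves no replicate to omit. Limits from depth cannot be given, since the files hold no counts.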

Other observations

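Isolated spans outside the length limits were not used in the report. Of 51 isolated spans of 1100 bp or less, 29 reached 1 FPKM, and 8 of these (27.6%, exact 95% binomial interval 12.7% to 47.2%) were past 2-fold on the fl4 side and 0 were 2-fold lower. Over all 10465 spans of that length with at least 1 FPKM, 14.6% were 2-fold higher and 10.8% 2-fold lower. Over the 524 such spans within 1 Mb of an isolated locus that were not isolated themselves, 18.7% were higher and 9.54% lower. The one-sided count was noticed after the values were seen and was not tested. The wild type value was a listed 0 for 3 of the 8, and 2 of the other 5 exceeded 10 FPKM in fl4. A span of 107 bp on chromosome 8 had 20.8 FPKM in fl4 and 4.55 FPKM in wild type, and a span of 186 bp on chromosome 7 had 23.0 and 6.45 FPKM. Among isolated spans of 300 to 1100 bp with at least 1 FPKM, 3 of 18 were 2-fold higher (exact 95% binomial interval 3.58% to 41.4%) and 0 lower, against 8.08% higher and 6.26% lower of all 6226 spans of that length and level. The 4 isolated spans of 20000 bp or more included 2 of at least 10 FPKM, neither 2-fold apart.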
